A study of Arabidopsis thaliana with 9 samples.

Results

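The protease inhibitor genes described here are 9 genes chosen by gene ID, namely 5 Kunitz inhibitor genes, 2 genes of the potato inhibitor I type (PR-6 family) and 2 genes of the ATTI type (mustard trypsin inhibitors). Of these, 8 had values among the 17605 genes of the deposited table, while the expression of *AT1G72290*, which encodes the Kunitz protein WSCP, was not analysed here and only its sequence was used. Their transcripts were measured by RNA sequencing of leaves of 5 weeks old *Arabidopsis* Col-0 plants in 9 libraries, 3 per group and each from a separate experiment. In the EE group, egg extract of the butterfly *P. brassicae* had been spotted as 2 drops of 2 µL under each of 2 leaves on 4 plants, and leaves were taken after 5 days. In the oviposition group, 4 plants had carried 1 egg batch on 2 leaves, the eggs were taken off shortly before hatching, and leaves were also taken after 5 days. Control plants were left untreated, so no group received a mock application. The study compared the treatments to find genes that respond to both. The inhibitor genes, and the gene lists described below, were chosen with earlier results of these data known.

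Plant protease inhibitors block the active site of digestive or endogenous proteases and are a classical part of leaf defense against chewing insects and pathogens. Kunitz inhibitors are small β-trefoil proteins that mostly act on serine proteases, PR-6 proteins are compact inhibitors of serine proteases first described in potato, and ATTI proteins are cysteine-rich trypsin inhibitors typical of the mustard family. *KTI1* (*AT1G73260*) encodes a Kunitz trypsin inhibitor that is known to limit cell death in *Arabidopsis* leaves.

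Between 37348236 and 47057692 reads per library could be recovered from the deposited values. The library size that the authors' scaling implies, divided by the recovered reads, was 0.700 in control replicate 3 and between 0.857 and 1.20 in the other libraries. All 6 leaf markers, which are genes of photosynthesis, had values, and their summed level was between 8056 and 15054 CPM (normalized reads, scaled to the library size) in EE libraries, between 9971 and 23941 CPM in oviposition libraries and between 7849 and 33456 CPM in control libraries. The lowest sum was that of replicate 2 in each group. None of these 6 genes passed the limma test in either treatment (0 also at an unadjusted p under 0.05 and with voom). Replicates differed widely within the groups, so the absence of a call does not show equal marker levels. The 6 markers of seed, flower and root had no value in the table. Since whole leaves were sequenced, a higher level in more cells and a higher level per cell cannot be told apart.

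Oviposition and EE treatment were each accompanied by higher transcript levels of the same 4 inhibitor genes, *KTI1*, *UPI*, *TI1* and *AT2G38870*, which come from all 3 families. With EE, 4 of the 8 measured genes were past an adjusted p of 0.05 (limma, Benjamini-Hochberg over all genes), all of them higher, where 3.02% of all 17605 genes were called and 2.73% were called higher. With oviposition, again 4 of 8 were called higher, against 1.5% of all genes called and 1.49% called higher. This count was 2 of 8 in a voom fit of the recovered reads, where the oviposition calls of *KTI1* and *UPI* were lost, and the *UPI* call was lost in 7 of 17 alternatives. The median log2 fold change of the 8 genes was 3.35 with EE and 3.06 with oviposition, while the medians of all genes were -0.036 and -0.020. Both treatments were compared with the same 3 control libraries, so these results are not independent of each other. The genes were chosen with earlier results of these data known, so the comparison with all genes is a description and not a test. In the paper, *KTI1* (there *TI*) was selected as a marker from the most upregulated genes of this experiment, so its rise was known beforehand. The paper also cites an earlier response of this gene to oviposition and EE, and reports its induction by qPCR and in a reporter line. The other 4 genes, *AT1G17860*, *DR4*, *AT1G73325* and *ATTI3*, did not pass the test in either treatment.

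**Figure D1:**
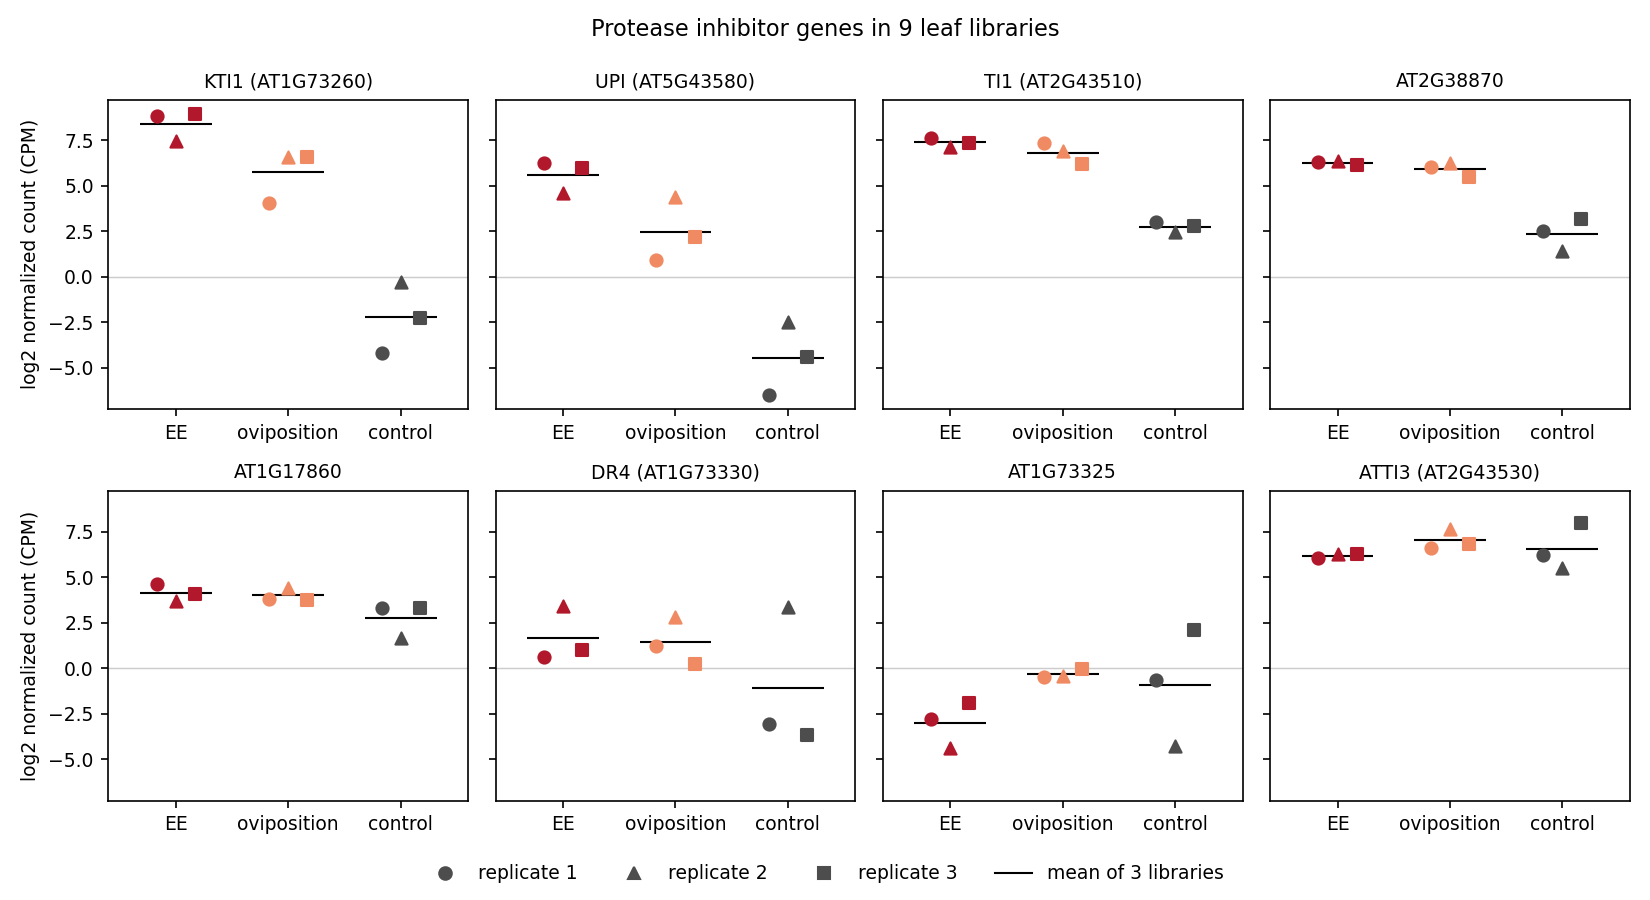
Log2 normalized counts (CPM, vertical axis) of the 8 measured inhibitor genes in EE, oviposition and control libraries (horizontal axis), where each point is 1 library, its shape gives the replicate number and the line is the mean of 3 libraries. *KTI1* reached a mean log2 value of 8.42 in EE libraries, 5.75 in oviposition libraries and -2.23 in control libraries, whereas *ATTI3* had 6.21, 7.05 and 6.58.

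The promoters of the 4 genes that rose in both treatments are shown because these genes moved together. Each runs from 250 bases before to 50 bases after the transcription start that RefSeq gives on TAIR10.1, 5′ to 3′ on the strand of the gene. Capitals mark the W-box core TTGAC, the binding motif of WRKY factors, and the as-1 type element TGACG, the motif of TGA factors, on both strands, so that copies on the other strand read GTCAA and CGTCA.
*KTI1*, chr1:27548233-27548532, minus strand: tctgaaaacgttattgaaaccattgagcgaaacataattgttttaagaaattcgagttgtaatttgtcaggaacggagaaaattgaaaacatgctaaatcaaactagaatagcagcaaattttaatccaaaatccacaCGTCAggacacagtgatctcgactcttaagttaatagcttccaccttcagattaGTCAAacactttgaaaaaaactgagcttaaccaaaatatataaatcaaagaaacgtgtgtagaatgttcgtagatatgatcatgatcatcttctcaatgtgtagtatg
*UPI*, chr5:17508703-17509002, minus strand: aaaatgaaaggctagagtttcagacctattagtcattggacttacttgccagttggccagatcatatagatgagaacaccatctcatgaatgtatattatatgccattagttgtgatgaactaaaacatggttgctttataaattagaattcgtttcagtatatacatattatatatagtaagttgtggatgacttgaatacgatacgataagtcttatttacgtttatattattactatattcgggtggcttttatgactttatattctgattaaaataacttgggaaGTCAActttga
*TI1*, chr2:18066710-18067009, plus strand: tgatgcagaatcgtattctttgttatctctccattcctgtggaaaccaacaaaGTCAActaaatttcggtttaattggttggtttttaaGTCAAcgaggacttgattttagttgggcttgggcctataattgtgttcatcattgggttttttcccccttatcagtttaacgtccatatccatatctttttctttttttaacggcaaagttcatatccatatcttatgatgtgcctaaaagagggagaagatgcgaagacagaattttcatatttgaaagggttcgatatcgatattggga
*AT2G38870*, chr2:16237231-16237530, minus strand: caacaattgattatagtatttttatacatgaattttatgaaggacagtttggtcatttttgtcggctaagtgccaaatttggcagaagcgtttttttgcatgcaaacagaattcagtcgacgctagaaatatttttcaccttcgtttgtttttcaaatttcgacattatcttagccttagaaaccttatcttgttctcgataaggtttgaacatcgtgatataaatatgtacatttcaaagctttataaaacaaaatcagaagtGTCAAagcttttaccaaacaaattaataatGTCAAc
The *KTI1* window holds 1 W-box core at -58 and 1 TGACG at -112, counted to the first base of the match from the start site. *UPI* has 1 W-box core at 40 bases into the transcript, *TI1* has 2 at -197 and -161, and *AT2G38870* has 2 at 15 and 45 bases into the transcript. These positions depend on the annotation. The RefSeq starts of *KTI1*, *UPI* and *TI1* differ from the TAIR10 positions printed below, for *TI1* 18066960 against 18067172. Of all 27443 promoters of this length, 50.5% hold TTGAC, against 6 of the 9 inhibitor genes, and 23.1% hold TGACG, against 2 of 9. The G-box CACGTG was found in 1 of 9 (*AT1G72290*) and in 7.68% of all promoters, and the GCC-box GCCGCC in 0 of 9 and in 2.57%. *AT1G17860* had 4 copies of TTGAC and 4 of TGACG, which overlap each other in part as TTGACG. At least 4 copies of TTGAC were present in 1.11% of all promoters and at least 4 copies of TGACG in 0.149%.

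*KTI1* was the inhibitor gene with the largest change. It lies on chromosome 1 at 27547274 to 27548190 (TAIR10, minus strand) and has a single exon. In replicates 1, 2 and 3, *KTI1* had 452, 175 and 504 CPM in EE-treated leaves, 16.5, 97.0 and 97.1 CPM in oviposited leaves, and 0.0555, 0.824 and 0.212 CPM in control leaves. Every EE library was above every oviposition library, and these were all above the control libraries, where the gene was close to silent. The control libraries held 2, 39 and 6 reads of the gene. On the log2 scale the means were 8.42 ± 0.84 with EE, 5.75 ± 1.47 with oviposition and -2.23 ± 1.95 in controls (SD, n = 3 libraries each). The log2 fold change over control was 10.65 with EE (SE 1.01, limma adjusted p = 0.00104), which ranked 7 of 17605 genes. With oviposition it was 7.98 (SE 1.01, limma adjusted p = 0.00681), which ranked 3. Since the paper picked *KTI1* as a marker from the most upregulated genes of these data, its high ranks are not an independent finding. Pooled over replicates, the ratio of reads per library size to control was 991 with EE (exact 95% interval 745 to 1349) and 192 with oviposition (144 to 261), where the interval covers counting error only. With 1 CPM added to every value, the log2 fold change was 8.01 with EE and 5.38 with oviposition. Leaving out single libraries gave 9.67 to 11.62 with EE and 7.01 to 8.95 with oviposition. The call for oviposition was lost in a voom fit of the recovered reads (adjusted p = 0.121).

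*UPI* (*AT5G43580*), an atypical serine protease inhibitor of the PR-6 family that is known from resistance to necrotrophic fungi, behaved much like *KTI1* at a lower level per kb. The gene has 2 exons on chromosome 5 (17507883 to 17508668, minus strand). In replicates 1, 2 and 3 it had 76.6, 24.9 and 63.2 CPM in EE-treated leaves, 1.92, 20.7 and 4.50 CPM in oviposited leaves, and 0.0111, 0.179 and 0.0480 CPM in control leaves. The groups did not overlap in any of the 3 pairings, although EE replicate 2 and oviposition replicate 2 were close. Control libraries held 0, 8 and 1 reads of *UPI*, so the value of control replicate 1 stands for the 0.5 reads added before the logarithm, and the size of the fold change depends on that constant. The log2 fold change over control was 10.08 with EE (SE 1.12, limma adjusted p = 0.00188) and 6.95 with oviposition (SE 1.12, limma adjusted p = 0.0186). Pooled reads gave ratios to control of 751 (exact 95% interval 396 to 1644) with EE and 129 (67.6 to 282) with oviposition. These intervals cover counting error only and not the spread between libraries, and 8 of the 9 control reads came from replicate 2. The oviposition call was lost without control replicate 3 (adjusted p = 0.0537), without oviposition replicate 2 (0.0665) and without oviposition replicate 3 (0.0752). It was also lost with voom (0.404), in a model of only the 2 groups (0.106), after quantile normalization (0.0775) and with 1 CPM added (0.160), where the log2 fold change was 2.71. With EE the call was lost with voom alone (adjusted p = 0.0716), and the log2 fold change was 5.55 with 1 CPM added.

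Over the 9 libraries, *UPI* was also the gene whose log2 values were most like those of *KTI1* among 16951 genes with a mean log2 value of at least 0 (Pearson r = 0.991). Next came *OSM34* (*AT4G11650*, osmotin 34, r = 0.989), *SRG1* (*AT1G17020*, a senescence-related gene, r = 0.985), *DUR* (*AT5G44480*, annotated as an NAD(P)-binding protein, r = 0.982) and *DOX1* (*AT3G01420*, an α-dioxygenase of oxylipin metabolism, r = 0.980). These are descriptions, since the 9 libraries share their treatments and any gene that follows the order of the groups scores high. *TI1* had r = 0.920 to *KTI1* and *AT2G38870* had 0.889, which were ranks 154 and 253. *AT1G17860* had 0.668, *DR4* 0.600, *ATTI3* -0.091 and *AT1G73325* -0.35.

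**Figure D2:**
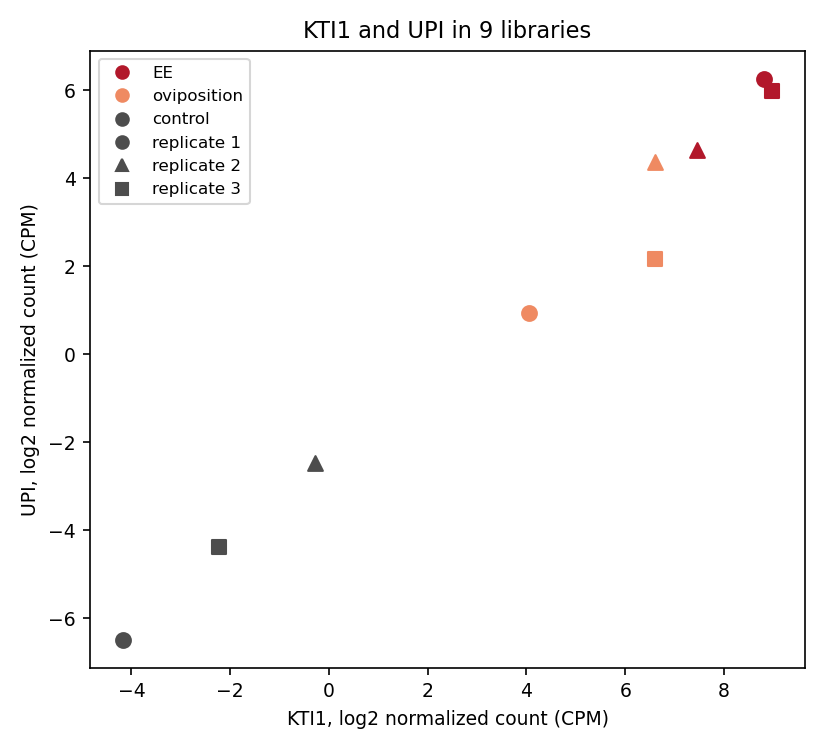
Log2 normalized counts (CPM) of *UPI* (vertical axis) against those of *KTI1* (horizontal axis), with 1 point per library, coloured by group and shaped by replicate number. The 3 control libraries lie below 0 on both axes, EE replicates 1 and 3 lie at the top, and EE replicate 2 lies beside oviposition replicate 2 (24.9 and 20.7 CPM of *UPI*).

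*TI1* (*AT2G43510*, also *ATTI1*), a trypsin inhibitor with 2 exons on chromosome 2 (18067172 to 18067802, plus strand), rose with the smallest standard error among the 4 called genes. Its level was 203, 144 and 164 CPM in EE replicates 1, 2 and 3, against 166, 120 and 72.5 CPM with oviposition and 8.07, 5.44 and 6.90 CPM in controls. Both treatments lay well above the controls in every library and overlapped each other. Relative to control, the log2 fold change was 4.65 with EE (SE 0.32, limma adjusted p = 0.000262) and 4.07 with oviposition (SE 0.32, limma adjusted p = 0.0012), and the call held in all 17 alternatives for both. Unlike *KTI1* and *UPI*, *TI1* was already transcribed in untreated leaves, at 10.8 ± 2.09 CPM per kb of gene in controls, against 0.397 ± 0.443 CPM per kb for *KTI1* and 0.101 ± 0.112 for *UPI* (mean ± SD, n = 3 libraries).

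*AT2G38870*, the other PR-6 gene, lies on chromosome 2 (16236381 to 16237280, minus strand) and has 2 exons. It had 79.3, 83.7 and 71.2 CPM in EE replicates 1, 2 and 3, 66.9, 77.1 and 45.7 CPM in oviposition replicates, and 5.76, 2.70 and 8.96 CPM in controls. Again each treatment was above the controls in every library. The log2 fold change was 3.91 with EE (SE 0.41, limma adjusted p = 0.00147) and 3.57 with oviposition (SE 0.41, limma adjusted p = 0.00468). Both calls held in all 17 alternatives. Its log2 values followed those of *TI1* with r = 0.976 over the 9 libraries, again as a description of libraries that share treatments. The coding sequences of *UPI* and *AT2G38870* are identical at 64.0% of aligned bases, while their levels in untreated leaves were 0.101 ± 0.112 and 6.45 ± 3.48 CPM per kb.

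**Figure D3:**
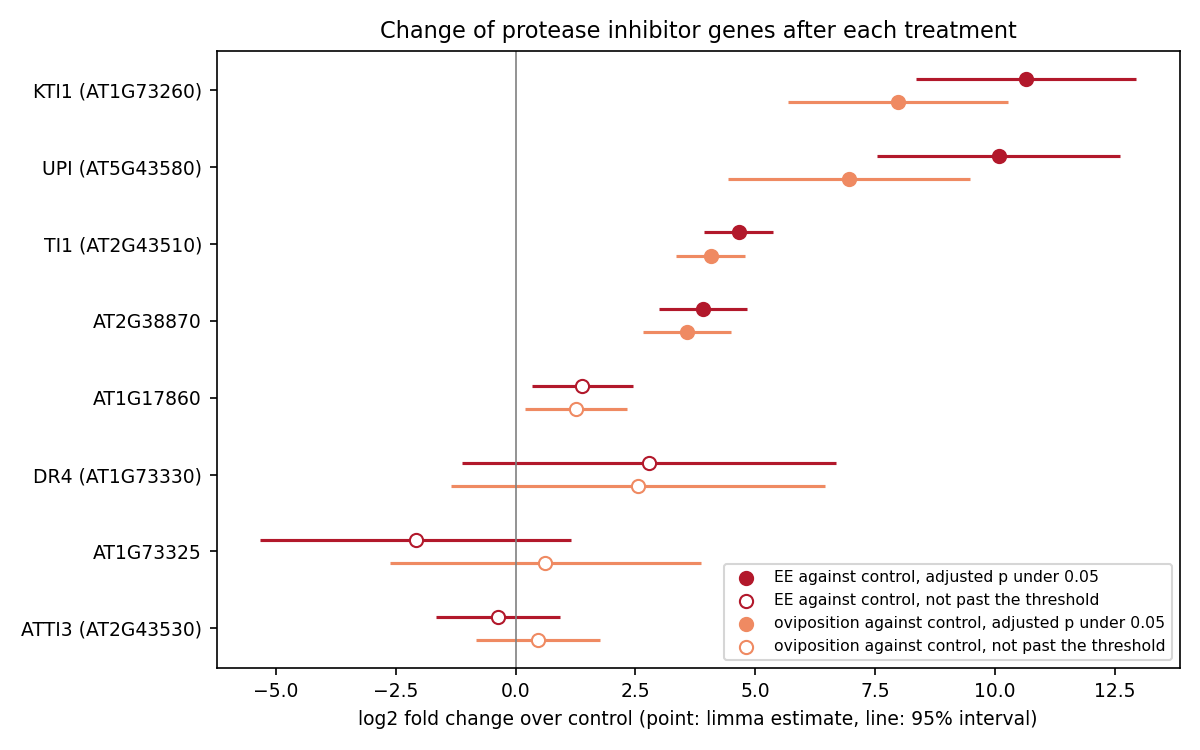
Log2 fold change over control (horizontal axis, bars are 95% intervals from limma) of the 8 measured genes (vertical axis) with EE and with oviposition. *KTI1*, *UPI*, *TI1* and *AT2G38870* are past an adjusted p of 0.05 in both treatments, and *DR4* has the widest intervals, from -1.12 to 6.69 with EE.

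*AT1G17860*, a Kunitz gene with 1 exon on chromosome 1 (6149301 to 6150038, plus strand), was the fifth gene whose libraries did not overlap with the controls in either treatment. It had 24.7, 13.1 and 17.2 CPM in EE replicates 1, 2 and 3, 14.3, 21.6 and 13.8 CPM with oviposition, and 9.95, 3.16 and 9.84 CPM in controls. The lowest treated library was above the highest control library, but the gap was small beside the spread. The fitted log2 fold change was 1.39 with EE (SE 0.47, limma adjusted p = 0.211) and 1.26 with oviposition (SE 0.47, limma adjusted p = 0.449), neither past the threshold. Control replicate 2 was the lowest, and without it the log2 fold change was 0.84 with EE and 0.71 with oviposition. All libraries of a treatment were above all controls for 5 of 8 inhibitor genes in each treatment, where this was so for 9.12% of all genes with EE and 5.96% with oviposition. This comparison too is a description, since the inhibitor genes were chosen with earlier results of these data known. The smallest p that an exact permutation test allows for 3 libraries per group is 0.1.

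*DR4* and *AT1G73325* are Kunitz neighbours on chromosome 1, on the same strand and 531 bases apart (27568718 to 27569717 and 27567518 to 27568186, TAIR10), and *KTI1* lies 19327 bases from *AT1G73325*, also on this strand. Their coding sequences are identical at 64.5% of aligned bases, which is the closest match among the 5 Kunitz genes, and no word of 50 bases from either transcript recurs in the genome. *DR4* (*AT1G73330*), named for its repression by drought, had 1.54, 10.8 and 2.01 CPM in EE replicates 1, 2 and 3, 2.38, 7.21 and 1.17 CPM with oviposition, and 0.122, 10.3 and 0.0805 CPM in controls. Control replicate 2 held 501 reads, while control replicates 1 and 3 held 5 and 2. The log2 fold change was 2.79 with EE (SE 1.72, limma adjusted p = 0.582) and 2.54 with oviposition (SE 1.72, limma adjusted p = 0.973). Between libraries with the same number, the replicate 2 differences from control were 0.062 with EE and -0.52 with oviposition. Replicates 1 and 3 gave 3.66 and 4.64 with EE and 4.28 and 3.87 with oviposition. Over all genes, deviations from group means correlated clearly between the oviposition and control libraries of replicate 2 (0.67). Those of replicates 1 and 3 did not (0.0226 and -0.16). Without control replicate 2 the EE change was 5.02 (SE 0.998, limma adjusted p = 0.0324) and the oviposition change was 4.78 (limma adjusted p = 0.0626), so the gene was called with EE but still not with oviposition.

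*AT1G73325* had the lowest mean level per kb of the 8 genes in both treatments. It had 0.144, 0.0492 and 0.267 CPM in EE replicates 1, 2 and 3 (6, 2 and 10 reads), 0.710, 0.751 and 0.993 CPM with oviposition, and 0.632, 0.0529 and 4.36 CPM in controls (28, 2 and 127 reads). The controls overlapped with both treatments. Relative to control, *AT1G73325* had a log2 fold change of -2.09 with EE (SE 1.43, limma adjusted p = 0.628) and of 0.62 with oviposition (SE 1.43, limma adjusted p = 0.998). Its low control library was replicate 2, in which *DR4* was high, and the log2 values of the neighbours had r = -0.73 over the 9 libraries. With oviposition the direction turned without control replicate 2 (log2 fold change -1.04) and after quantile normalization (-0.49). With EE the log2 fold change was -3.75 without control replicate 2 and -0.57 without control replicate 3.

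*ATTI3* (*AT2G43530*), the trypsin inhibitor gene 2253 bases from *TI1* on chromosome 2 (18070056 to 18070718, plus strand), did not follow its neighbour. It had 66.4, 77.1 and 78.7 CPM in EE replicates 1, 2 and 3, 98.9, 205 and 115 CPM with oviposition, and 75.1, 45.0 and 258 CPM in controls. The controls spanned both treatments, and control replicate 3 was the highest of the 9 libraries. The log2 fold change was -0.37 with EE (SE 0.57, limma adjusted p = 0.853) and 0.47 with oviposition (SE 0.57, limma adjusted p = 0.998), with 95% intervals from -1.67 to 0.92 and from -0.82 to 1.77. The sign turned without control replicate 3 for EE (0.34) and without control replicate 2 for oviposition (-0.071). *TI1* and *ATTI3* share 69.4% of aligned coding bases. *TI2* (*AT2G43520*), which lies between them, had a log2 fold change of 1.15 with EE (limma adjusted p = 0.63) and 0.31 with oviposition (limma adjusted p = 0.998), neither past the threshold.

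The EE and oviposition libraries were also compared directly. No inhibitor gene passed the limma test at an adjusted p of 0.05 (0 of 8, and 2 of 8 at an unadjusted p under 0.05, against 2.85% of all genes), and a voom fit of the recovered reads called 0 as well. Among all genes, 0.017% (3 genes) were called, and 1 gene with the replicate number as a block. *KTI1* had a log2 difference of 2.67 (EE minus oviposition, 95% interval 0.37 to 4.97) and *UPI* had 3.13 (0.60 to 5.66), with limma adjusted p = 0.999 for both. For each of them the 3 EE libraries were above the 3 oviposition libraries, which was so for 4.28% of all genes. Within replicates the *KTI1* difference was 4.77, 0.85 and 2.38, and that of *UPI* was 5.31, 0.26 and 3.81, so that replicate 2 showed the least. The paper describes *KTI1* (there *TI*) as equally induced by both treatments, and its difference was not called here. For *TI1* and *AT2G38870* the intervals were -0.14 to 1.29 and -0.58 to 1.25, and the libraries overlapped. In the opposite direction, all EE libraries of *AT1G73325* and of *ATTI3* were below all oviposition libraries, as for 6.06% of all genes. Their log2 differences were -2.71 (95% interval -5.95 to 0.53) and -0.84 (-2.14 to 0.45). For *AT1G17860* (-0.93 to 1.19) and *DR4* (-3.66 to 4.15) the groups overlapped.

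**Figure D4:**
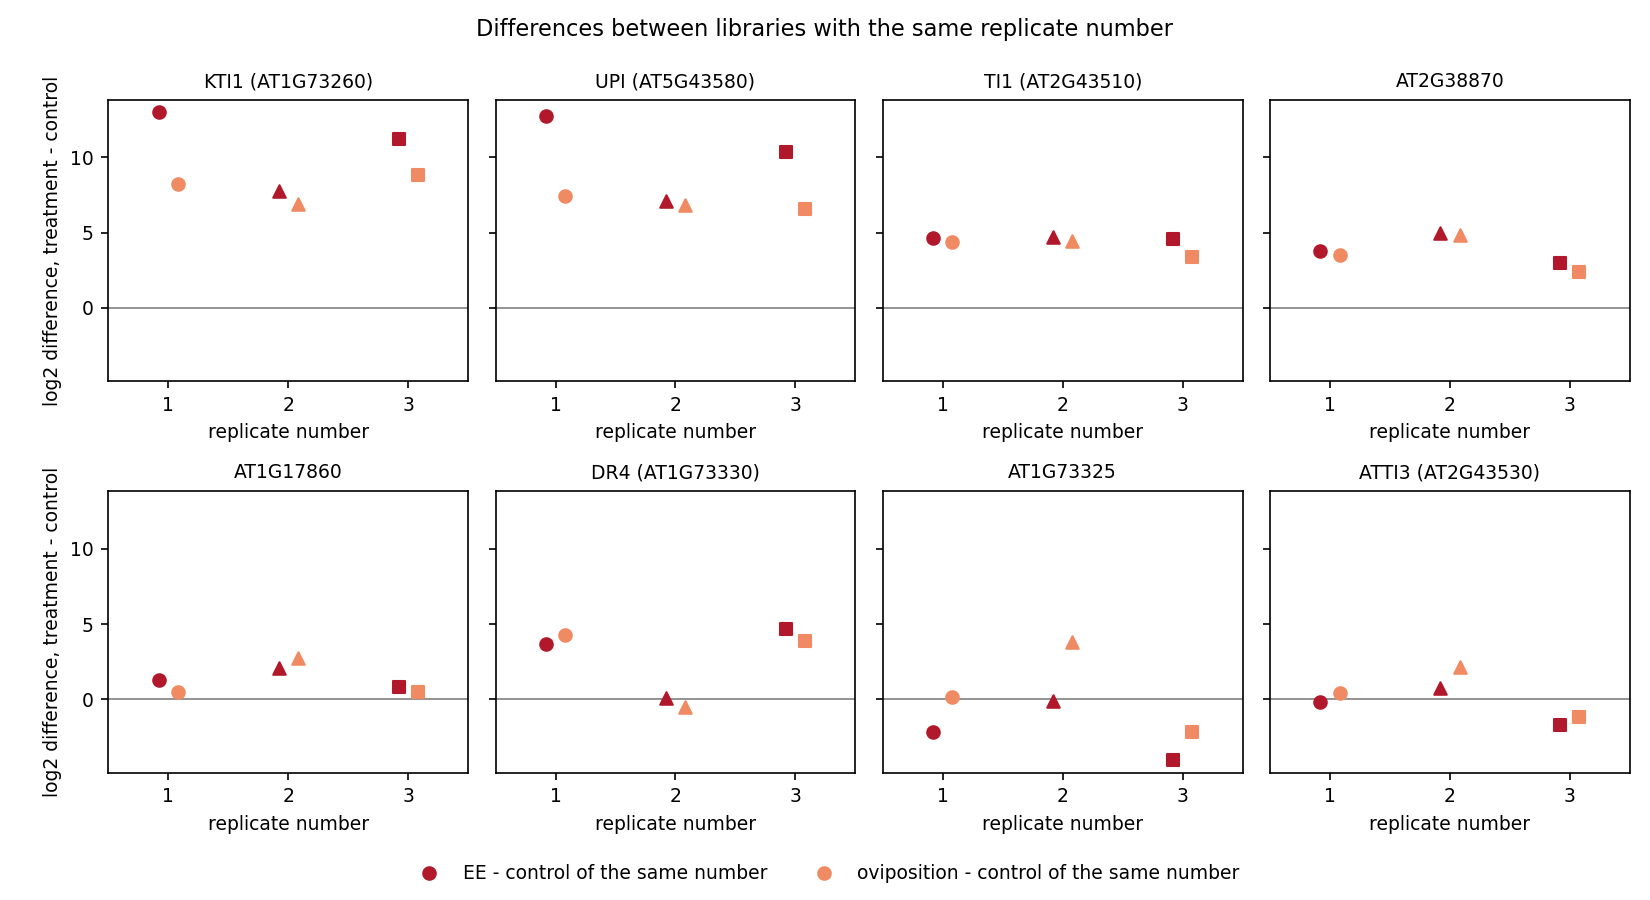
Log2 differences (vertical axis) between the treated and the control library with the same replicate number (horizontal axis), for EE and for oviposition, in the 8 measured genes. Over all genes, deviations from group means correlated clearly between oviposition and control libraries of equal number only in replicate 2 (0.67). *TI1* gave EE minus control differences between 4.58 and 4.72, while those of *DR4* ran from 0.062 to 4.64.

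Per kilobase (kb) of gene length in TAIR10, introns included, the order of the inhibitor genes differed between the groups. In EE-treated leaves *KTI1* had 411 ± 193 CPM per kb and *TI1* 270 ± 47.3 CPM per kb (mean ± SD, n = 3 libraries), and their libraries overlapped. Next came *ATTI3* with 112 ± 10.1 and *AT2G38870* with 86.8 ± 7.03 CPM per kb. *TI1*, *ATTI3*, *AT2G38870* and *UPI* have 2 exons, so a length without introns would change their values. It could also change the order, including that of *TI1* and *ATTI3*. The RefSeq transcript of *ATTI3* has 252 bases, against the 663 used here, and that of *TI1* has 761, against 631. *AT2G38870*, *UPI* (69.8 ± 34.2) and *AT1G17860* (24.9 ± 7.95) each overlapped with the next, and *DR4* (4.77 ± 5.20) and *AT1G73325* (0.229 ± 0.163) were lower in every EE library. In oviposited leaves the highest levels per kb were those of *ATTI3* (210 ± 86.0) and *TI1* (189 ± 74.0), which overlapped. *KTI1* (76.6 ± 50.7) and *AT2G38870* (70.3 ± 17.8) followed and also overlapped. *KTI1* overlapped with *AT1G17860* (22.4 ± 5.96) as well, and *AT1G17860*, *UPI* (11.5 ± 13.0), *DR4* (3.59 ± 3.20) and *AT1G73325* (1.22 ± 0.228) each overlapped with the next. In untreated leaves *ATTI3* had 190 ± 174 CPM per kb and did not overlap with any other inhibitor gene. *TI1* (10.8 ± 2.09), *AT1G17860* (10.4 ± 5.27) and *AT2G38870* (6.45 ± 3.48) overlapped, while *KTI1* and *UPI* had the lowest means. *DR4* (3.51 ± 5.90, range 0.0805 to 10.3) overlapped with every gene except *ATTI3*. *AT1G73325* (2.51 ± 3.49, range 0.0791 to 6.51) overlapped with every gene except *ATTI3* and *TI1*. The place of *DR4* and *AT1G73325* in this order was therefore not resolved.

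Genes of the same and other inhibitor families, and of the proteases such inhibitors may act on, were given by lists. Of 12 other inhibitor genes with values (1 Kunitz, 1 PR-6, 3 ATTI type, 6 phytocystatins, which inhibit cysteine proteases, and 1 serpin), 0 passed the limma test with EE and 0 with oviposition, where 3.02% and 1.5% of all genes were called. At an unadjusted p under 0.05 there were 3 of 12 with EE, against 13.4% of all genes, and 1 of 12 with oviposition, against 7.69%. A voom fit of the recovered reads also called 0 of the 12 in both treatments. When control replicate 2 was left out, 1 ATTI type gene and 1 phytocystatin were called with EE. Their median log2 fold change was -0.27 with EE and 0.20 with oviposition. The other Kunitz gene, *AT3G04320*, had 2.68, 0.282 and 3.73 CPM in EE replicates 1, 2 and 3, against 0.0555, 0.0529 and 0.0157 CPM in controls, a log2 fold change of 5.30 (limma adjusted p = 0.164). With oviposition its log2 fold change was 1.68 (limma adjusted p = 0.998) and its libraries overlapped with the controls. The PR-6 gene *AT5G43570*, the neighbour of *UPI* on the other strand, had 2.81, 0.725 and 2.42 CPM with EE against 0.166, 0.0529 and 0.0157 CPM in controls, a log2 fold change of 5.04 (limma adjusted p = 0.0823). With oviposition it had 2.77 (limma adjusted p = 0.673), again with overlapping libraries. Both were low in every library and are named after their values were seen, together with *TI2*. Control replicate 3 held 0 reads of *AT3G04320* and of *AT5G43570*, so the size of their changes depends on the 0.5 reads added.

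Of 26 protease genes with values, 3 rose with EE, against 3.02% of all genes called, and 7 had an unadjusted p under 0.05, against 13.4% of all genes. With oviposition 0 of 26 were called (0 with voom, 1.5% of all genes with limma) and 7 had an unadjusted p under 0.05, against 7.69% of all genes. The median log2 fold change of the 26 genes was 0.27 with EE and 0.42 with oviposition. *SBT3.3* (*AT1G32960*), a subtilase known from immune priming, had 9.36, 10.1 and 10.7 CPM in EE replicates 1, 2 and 3, 3.79, 4.04 and 6.96 CPM with oviposition, and 0.677, 0.283 and 0.0157 CPM in controls. Its log2 fold change was 6.12 with EE (SE 1.15, limma adjusted p = 0.0242) and 5.04 with oviposition (limma adjusted p = 0.0864). Control libraries held 30, 13 and 0 reads of *SBT3.3*, so the size of these changes depends on the 0.5 reads added before the logarithm. *SBT3.5* (*AT1G32940*), a subtilase from the same gene cluster, had 39.8, 34.8 and 62.7 CPM with EE, 11.9, 21.8 and 29.4 CPM with oviposition, and 8.56, 12.4 and 6.02 CPM in controls (EE log2 fold change 2.36, SE 0.40, limma adjusted p = 0.0158). *RD21B* (*AT5G43060*), a papain-like cysteine protease, had 25.1, 28.5 and 26.2 CPM with EE, 14.5, 25.9 and 17.8 CPM with oviposition, and 9.09, 10.2 and 10.3 CPM in controls (EE log2 fold change 1.43, SE 0.24, limma adjusted p = 0.0144). These calls depended on single libraries, because the subtilase count was 0 when EE replicate 1 or EE replicate 3 was left out and 1 when EE replicate 2 or control replicate 1 was left out. The papain-like count was 0 in the absence of any single EE library or of control replicate 1. With oviposition, 1 subtilase was called when control replicate 1 or control replicate 3 was left out, and with 1 CPM added.

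**Figure D5:**
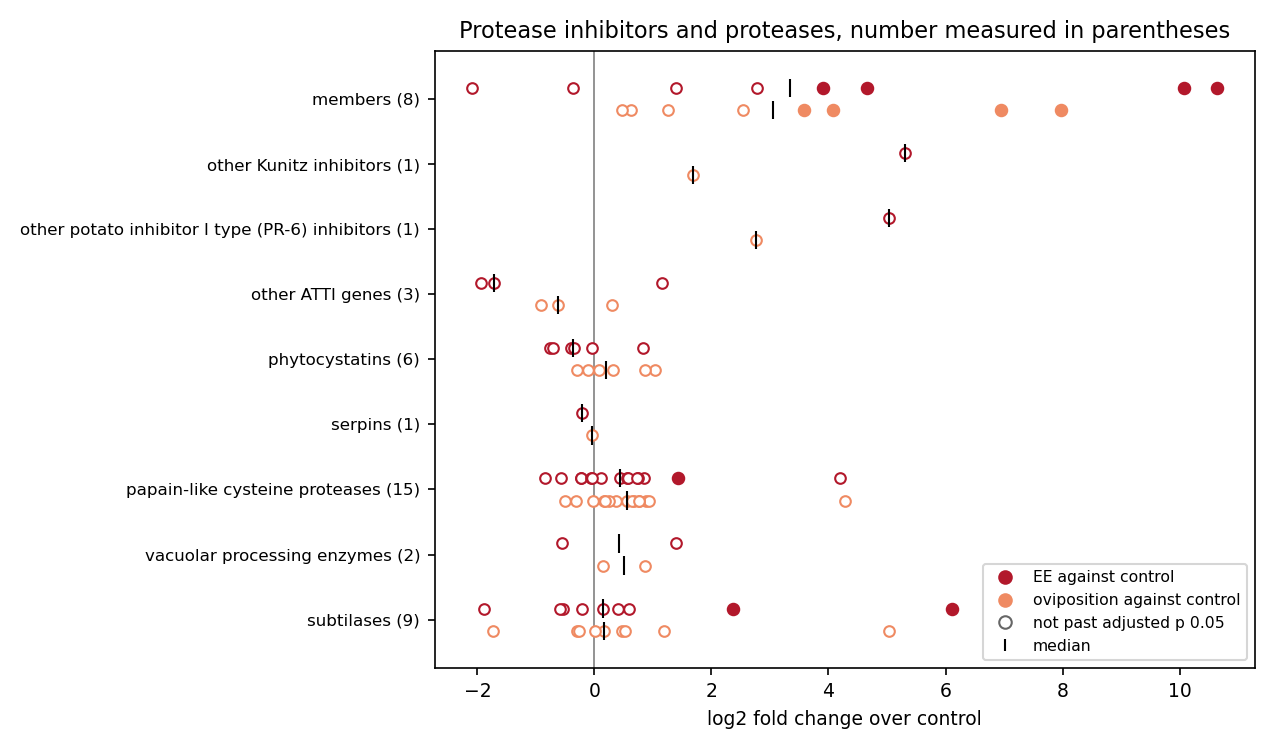
Log2 fold change over control (horizontal axis) of each measured gene of the inhibitor and protease lists (vertical axis, number measured in parentheses) with EE and with oviposition. Filled points are past an adjusted p of 0.05 and black ticks are medians, which for the 8 inhibitor genes chosen by gene ID are 3.35 with EE and 3.06 with oviposition.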

How the data were processed

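RNA of leaves from 3 independent experiments per group gave 9 stranded mRNA libraries. The authors mapped reads to TAIR10 with STAR and deposited log2 normalized counts (CPM), scaled by library size and the trimmed mean of M-values. The submitters' processing notes list cutadapt 1.5, HTSeq, edgeR 3.4.0 and limma 3.2. The strand setting of the counting and the filter behind the 17605 genes are not given in the sources used here. Every deposited log2 column had the same median (4.19), so a scaling between libraries is included. With 0.5 added reads and a fitted library size and factor (0.985 to 1.01), 100% of 158445 values came within 0.01 of whole reads, and a CPM value printed here is 2 to the power of the deposited log2 value. The deposited table of the authors' fold changes and adjusted p-values was not used.

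The log2 values were fitted with limma 3.58.1 in R 4.3.3, with 1 mean per group over all 9 libraries, a mean-variance trend in the moderated variances, two-sided tests, Benjamini-Hochberg adjustment across the whole table and a limit of 0.05. The labels give a replicate number and do not say whether equal numbers share an experiment. Deviations from group means were therefore correlated across genes, for numbers 1, 2 and 3. This gave 0.335, 0.775 and 0.318 between EE and control libraries, and 0.553, 0.764 and 0.526 between EE and oviposition libraries. Between oviposition and control libraries it gave 0.0226, 0.67 and -0.16. All same-number values were over 0.1 in both EE comparisons, and the numbers were taken to pair these libraries. However, control 1 with EE 3 (0.349) and control 3 with EE 1 (0.432) correlated as strongly. Control 3 with oviposition 1 (0.608) and control 1 with oviposition 3 (0.435) exceeded the equal-number values of oviposition and control for replicates 1 and 3. The pairing of control replicates 1 and 3 was therefore not settled. Equal numbers that pair EE with both other groups would also pair oviposition with control, so low correlations do not exclude that pairing. The number as a block, other fits and scalings, and leaving out each library were the alternatives, while voom and leaving out all replicate 2 libraries were added after seeing the data. Leaving out 1 library leaves 2 in its group, which is then assumed to vary like the others. The 9 genes and the lists were chosen with earlier results of these data known. Named genes are these 9, the 5 genes most like *KTI1*, and up to 3 called genes of each list. *AT3G04320*, *AT5G43570* and *TI2* are named outside this rule. Promoters, exons and coding sequences were read from RefSeq TAIR10.1, in which 100% of 17502 genes overlapped the position given in the table. Python 3.11.15, Biopython 1.88 and matplotlib 3.10.9 were used.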

Additional observations from a re-analysis of the deposited data

How the results depend on the processing

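Of 405 values for single genes under 17 alternatives, 384 kept their direction and their side of the threshold. With EE, the number of inhibitor genes called (4) was 3 with voom on recovered reads, 5 without replicate 2 in any group, 4 to 5 when single libraries were left out and 4 otherwise. With oviposition (4) it was 2 with voom, 3 to 4 when single libraries were left out, 3 for only the 2 groups, quantile normalization or 1 CPM added, and 4 otherwise. For EE against oviposition it was 0 throughout. With the replicate number as a block the counts stayed 4, 4 and 0 and no call of an inhibitor gene changed. Deviations from group means correlated clearly between oviposition and control libraries of equal number only in replicate 2 (0.67). How well the block pairs these libraries was therefore not settled.

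Signs turned for genes that passed no test. *AT1G73325* with oviposition (0.62) was -0.49 after quantile normalization, -0.21 with 1 CPM added, -0.98 without replicate 2 in any group and -1.04 to 2.14 when single libraries were left out. *ATTI3* with oviposition (0.47) was -0.39 without replicate 2 in any group and -0.071 to 1.19 when single libraries were left out, and with EE (-0.37) -0.91 to 0.34. For EE against oviposition, leaving out single libraries gave -0.11 to 0.35 for *AT1G17860* and -0.63 to 0.95 for *DR4*. *DR4* with EE was 4.15 (limma adjusted p = 0.0361) without replicate 2 in any group. The cause of these changes was not tested.

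The counts over all genes moved more. With oviposition 264 genes were called, against 54 for only the 2 groups, 67 with voom, 164 after quantile normalization, 99 without replicate 2 and 114 to 333 when single libraries were left out. With EE 532 were called, against 343 with voom, 350 without replicate 2 and 210 to 774 when single libraries were left out; 51 of the 532 were lower, against 149 with the block. For EE against oviposition 3 were called, against 36 with 1 CPM added, 14 after quantile normalization, 5 with voom, 1 with the block and 0 without replicate 2. The low-value filter removed *AT1G73325*. The planned edgeR quasi-likelihood test was not run, since the deposited unit is log2, and voom took its place. Low control counts limit how well the size of the *KTI1* and *UPI* folds is known.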
